A study of Mus musculus with 3 samples.

Results

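Brain vessels of wild-type mice on a mixed C57BL6-BALB/c background were compared with those of wild-type C57BL6 mice, by RNA sequencing of 1 library from each. These are 2 of the 3 libraries of the series, and both groups were wild type (WT) and 3 months old, with no treatment named in the labels. The remaining library came from mice of the mixed background in which connexin 43 (Cx43) was deleted by hGFAP-Cre acting on a floxed gene (hGFAP-Cre/Cx43fl/fl). The human GFAP promoter that drives this Cre is active in astroglia and in the radial progenitors that also give rise to neurons. That library is given only as a side value, since it is labelled with the mixed background but also carries the deletion. At some genes that vary between strains it was close to C57BL6, as given below, and whether its background matches that of the mixed-background WT library was not tested. Nothing in the labels gives the share of each parent strain in the mixed background, the C57BL6 substrain, how vessels were isolated, or whether a library is 1 animal or a pool. Of 29787 genes matched to the annotation, the 13694 that reached a level of 5 in either WT library were described. A level is the read count summed over the transcripts of a gene, divided by the library total after TMM scaling and given as counts per 1e6 (CPM). There is 1 library a side and thus no replicate and no test, and every value below is the size of a difference between 2 libraries. The background, the animal and the preparation of a library cannot be told apart.

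The mixed-background library held 21170766 reads and the C57BL6 library 24830975, so a level of 5 corresponded to 106 and 127 counts. Ratios are log2, mixed background over C57BL6, after adding 0.5 to each level, which understates the ratio of low genes. A gene was called when its ratio passed 2-fold. Folds of single genes come from reads on 1 transcript, the most abundant one of the gene, and carry 95% exact binomial intervals, which cover counting error only. In this bulk RNA, fewer cells of a type and less RNA per cell cannot be told apart. Gja1, which encodes connexin 43, was at 202 in both WT libraries and at 48.0 in the Cx43-deleted one.

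Brain vessels are lined by endothelial cells that are sealed by tight junctions and loaded with transporters, the cellular basis of the blood-brain barrier. Pericytes surround capillaries, smooth muscle cells surround arterioles, and astrocyte endfeet, fibroblasts and perivascular macrophages lie outside them, so RNA of a vessel preparation holds all of these with some neurons, glia and blood. Inbred strains such as C57BL6 and BALB/c differ in the haplotype of the major histocompatibility complex (MHC), in the innate sensor genes they carry and in the copy number of several gene clusters.

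Most genes had close levels in both WT libraries: 11825 of 13694 (86.4%) lay within 1.5-fold. The median log2 ratio was −0.03, with quartiles of −0.29 and 0.22. At 2-fold, 120 genes were higher in the mixed-background library (0.876% of those measured) and 253 were lower (1.85%). At 4-fold, 19 were higher and 18 lower, and at 8-fold 10 were higher and 4 lower. The level filter accounts for part of the 2-fold counts: 49 of the higher genes reached a level of 5 only in the mixed-background library, and 68 of the lower genes only in C57BL6. The share of genes called fell from 5.11% in the bottom quartile of mean level to 1.29% in the top one. Ratios also moved with transcript length. Among protein-coding genes the median was −0.21 in the quartile with the shortest transcripts and 0.12 in that with the longest, while the share of transcript bases without a read was 11.9% in the mixed-background library and 11.3% in C57BL6. The part of this length gradient in any list below was not tested.

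**Figure D1:**
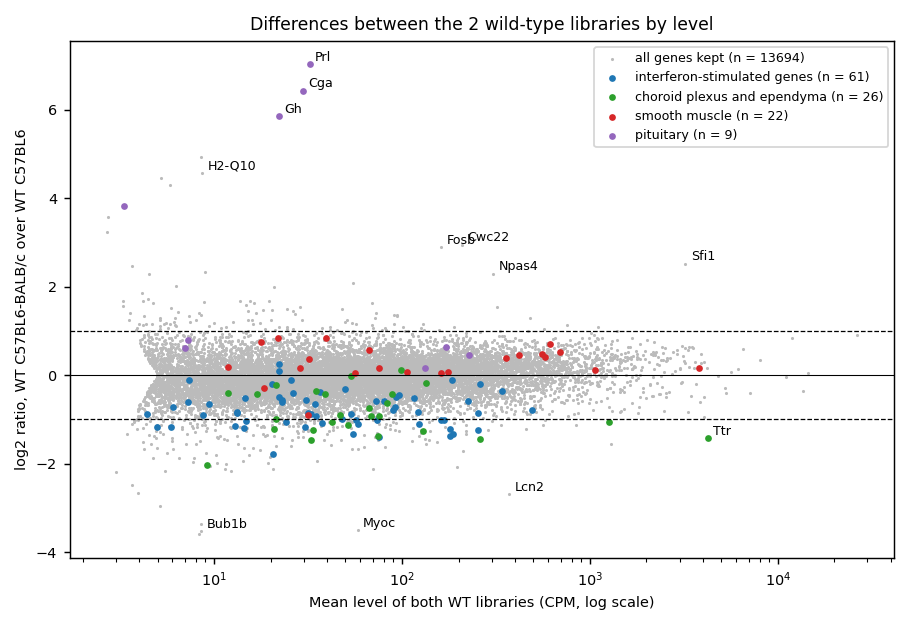
Each of the 13694 genes is a point, with its mean level in both WT libraries (CPM, log axis) across and its log2 ratio, mixed background over C57BL6, upwards; dashed lines mark 2-fold. Most points lie between the dashed lines, pituitary hormones stand at the top, and interferon-stimulated genes and choroid plexus markers lie mostly below 0.

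The furthest genes were present in the mixed-background library and all but missing from C57BL6. Of the 13694 genes described, 10 had 10 or fewer counts in C57BL6, and 0 had so few in the mixed-background library. The limit of 10 counts was chosen after values were seen. A gene with so few counts in C57BL6 could be kept only through the mixed-background library, so nothing is read from these counts. The 10 genes were 4 pituitary hormone genes, 4 loci in the MHC region, an innate sensor and Platr9, a non-coding transcript beside a hormone gene.

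H2-Ea-ps (ENSMUSG00000036322; GRCm38 chromosome 17, 34341959 to 34344645) is the alpha chain gene of the MHC class II molecule I-E, annotated as a polymorphic pseudogene because C57BL6 mice carry a non-functional copy while BALB/c mice express it. It had 115 reads in the mixed-background library and 0 in C57BL6, at least 45.9-fold higher against the floor of 3 reads. Of its 686 bases, 5 lacked a read in the mixed-background library and all 686 lacked one in C57BL6. The Cx43-deleted library, labelled with the same mixed background, also had 0 reads.

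H2-Q10 (chromosome 17, 35470089 to 35474563), a secreted MHC class I molecule, had 361 reads against 6 in C57BL6 and 8 in the Cx43-deleted library. Its fold was 72.1 (32.8 to 198), but 1160 of its 1473 bases had no read in the mixed-background library either, so the reads lie on a small stretch. Class I genes resemble each other, which makes the value uncertain. Further along chromosome 17 the neighbouring loci 2410017I17Rik and Gm8909 had 361 and 222 counts against 2 and 0. Nlrp1a (chromosome 11, 71092236 to 71144704), an inflammasome-forming sensor of a cluster that differs between strains, had 57 reads against 2, a fold of 34.1 (9.03 to 289). Its neighbour Nlrp1b (chromosome 11, 71153102 to 71230733) went the other way, with 4 reads against 45, 9.39-fold lower (3.42 to 35.95). The Cx43-deleted library had 1 read of Nlrp1a and 28 of Nlrp1b. At H2-Ea-ps, H2-Q10 and Nlrp1a its values were thus close to C57BL6 in spite of its label.

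The pituitary genes were hormones. Prl (chromosome 13, 27057570 to 27065205), prolactin, had 684 reads against 0, at least 273-fold higher. Gh (chromosome 11, 106300271 to 106301865), growth hormone, had 933 reads against 7, a fold of 159.7 (77.2 to 398). Cga, the common alpha subunit of the glycoprotein hormones, had 518 reads against 2, a fold of 310.3 (85.5 to 2569), and it shares 32.0% of its exon bases with its neighbour Platr9, a non-coding transcript at 246 reads against 3. Fshb, the beta subunit of follicle-stimulating hormone, had 140 reads against 0, at least 55.9-fold higher. In the Cx43-deleted library these genes were near 0 as well, with 1 read of Prl, 2 of Gh, 3 of Fshb and 19 of Cga. Of 16 pituitary markers, 9 were kept, all 9 higher and 4 of them by 2-fold, with a median of 0.79, also when genes at 0 reads were set to their bound. All 4 reached the level minimum through the mixed-background library alone, so nothing is read from these counts. The median was 3.24 over the 6 members left at a minimum of 20. Prl, Cga and Gh passed that minimum through the mixed-background library alone as well, so nothing is read from this median either. The summed level of the 9 was 803 against 460.2, much of it from Chga, Chgb and Scg2, secretory granule proteins that neurons also make. Pomc, the precursor of adrenocorticotropin, was at 9.29 against 5.16, and Lhb, the beta subunit of luteinising hormone, at 8.54 against 5.43. The lineage factors Pou1f1 and Pitx1 stayed under the level minimum, at 0.189 and 0.613 against 0.157 and 0.197. The part of pituitary tissue in the other results was not tested.

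**Figure D2:**
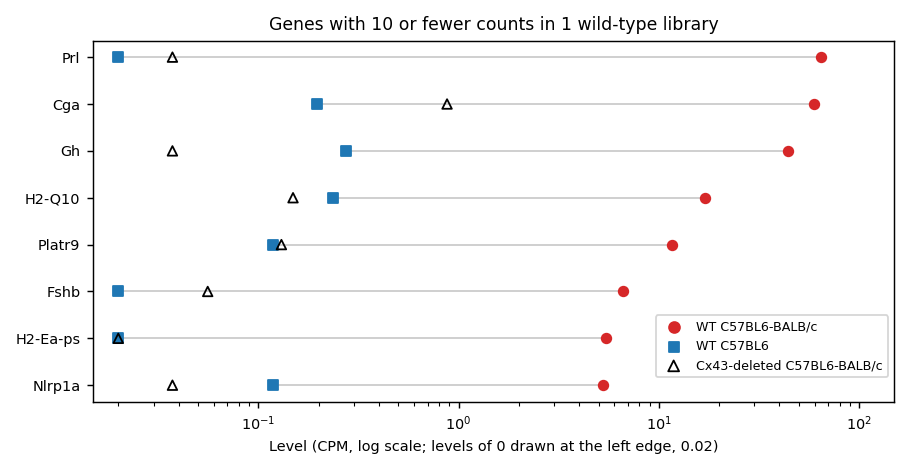
Levels (CPM, log axis) of 8 of the 10 genes with 10 or fewer counts in C57BL6, leaving out the loci 2410017I17Rik and Gm8909; circles are the mixed-background library, squares C57BL6 and triangles the Cx43-deleted library, with levels of 0 drawn at the left edge. All 8 circles lie at 5.28 or more, all squares at 0.276 or less and all triangles at 0.876 or less.

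Other genes known to vary between strains differed in both directions. Of the 53 such genes that were matched, 39 were kept. Among these, 6 were 2-fold higher (15.4%, against 0.876% of all genes) and 9 were 2-fold lower (23.1%, against 1.85%). H2-Ea-ps, Nlrp1a and Ighg2c reached the level minimum only in the mixed-background library. Nlrp1b, Entpd4b, Naip2, Trim30d and Oca2 did so only in C57BL6, so nothing is read from these shares. At a minimum of 20, 3 of the 6 and 4 of the 9 were left. Cwc22 (chromosome 2, 77881159 to 77946375), a splicing factor in a region with variable copy number, was at 369 in the mixed-background library, 47.4 in C57BL6 and 57.6 in the Cx43-deleted library. Sfi1 (chromosome 11, 3131850 to 3193463), a centrosome protein with related copies elsewhere in the genome, was at 5485 against 957, with 1380 in the Cx43-deleted library. Its neighbours Pisd-ps1, a pseudogene at 446 against 222, and Gm11399, at 7.83 against 1.22, were also called, which makes this 1 of 2 runs of 3 adjacent genes higher in the mixed-background library. With library totals alone Pisd-ps1 was at 0.98 and was no longer called. Reads of such copies may be split differently between them, so these values are uncertain. Ighg2c, the IgG2c heavy chain constant gene, had 139 reads against 20, and the Cx43-deleted library exceeded both with 765. It has close relatives at the same locus whose alleles differ between strains. Of other immunoglobulin genes, Igkc had 150 reads against 46, with 4849 in the Cx43-deleted library, and Ighm 598 against 554, with 403. The part of the background in the Ighg2c value was not tested.

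Lower in the mixed-background library were Trim12a, of a family of antiviral TRIM proteins (48 reads against 248, 4.31-fold, 3.16 to 6.004), and Oca2, a melanosome protein (28 against 138, 4.11-fold, 2.73 to 6.42). Naip2, a sensor of bacterial secretion systems, had 36 reads against 137, and Apobec3, a restriction factor of retroviruses, 162 against 520. Entpd4, a nucleotidase of the Golgi, was at 69.5 against 159.8 and its neighbouring copy Entpd4b at 2.69 against 7.16. At Trim12a (6.80), Entpd4 (67.4) and Entpd4b (2.50) the Cx43-deleted library was close to the mixed-background WT library, unlike at Cwc22 and H2-Ea-ps. Nnt, a mitochondrial transhydrogenase that one C57BL6 substrain carries with a deletion, was at 121 against 106. Fv1, a capsid-restriction gene with strain alleles, was at 7.92 against 5.12, below 2-fold. Of the 42 Trim genes kept, a group set up after values had been seen, 28 were lower (66.7%, against 53.8% of all genes) and 4 were so by 2-fold (9.52%, against 1.85%).

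Among the other genes highest in the mixed-background library, Fosb (chromosome 7, 19302696 to 19310051) had 6027 reads against 962, a fold of 7.51 (7.01 to 8.04), and Npas4 (chromosome 19, 4984355 to 4990316) 10778 against 2628, 4.91-fold (4.71 to 5.13); both are activity-induced transcription factors described below. Slc22a3, an organic cation transporter, had 325 reads against 67 (5.81-fold, 4.46 to 7.68), and the Cx43-deleted library was at the C57BL6 level, 2.76 against 2.64. Pnma2, a neuronal antigen, had 1643 reads against 447 (4.40-fold, 3.96 to 4.90). Of its 5435 bases, 1042 lacked a read in C57BL6 and 12 in the mixed-background library. Zfp729a, a zinc finger gene of a large cluster, had 714 reads against 206. Aire, the autoimmune regulator, was at a level of 10.4 against 2.20, but its most abundant transcript had only 24 and 10 reads.

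Among the genes lowest in the mixed-background library, Tnni1, slow skeletal troponin I, had 3 reads against 70, a ratio of 19.5 (6.40 to 96.7). Bub1b, a mitotic checkpoint kinase, had 18 reads against 315 (14.6-fold lower, 9.09 to 24.97), while the Cx43-deleted library exceeded both at a level of 32.96. Myoc (chromosome 1, 162639155 to 162649693), myocilin, a secreted protein of the eye and of leptomeningeal tissue, had 191 reads against 2727, 11.9-fold lower (10.3 to 13.9). Ang, angiogenin, a secreted ribonuclease, had 17 reads against 242. Lcn2 (chromosome 2, 32384633 to 32388252), lipocalin 2, an iron-binding acute-phase protein of neutrophils, endothelium and reactive astrocytes, had 631 reads against 4880, 6.46-fold lower (5.94 to 7.02). Omp, the olfactory marker protein, had 15 reads against 182. Tnni1, Myoc, Lcn2 and Omp were at 0.951, 9.75, 116 and 0.485 in the Cx43-deleted library, close to the mixed-background WT values of 0.849, 9.01, 99.3 and 0.707.

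Ch25h, which makes 25-hydroxycholesterol in response to interferon, had 155 reads against 855 (4.60-fold lower, 3.88 to 5.50). Tmem252, a membrane protein of unclear function, had 549 against 2898 (4.41-fold, 4.02 to 4.84). Col6a4, a collagen VI chain, had 65 against 376, Btnl9, a butyrophilin-like protein, 24 against 163, Apol10b, an apolipoprotein L gene, 84 against 477, and Serpina3g, a protease inhibitor of leukocytes, 72 against 396. Pttg1, securin, which holds sister chromatids together until anaphase, was at 74.98 against 316, with 20.99 in the Cx43-deleted library. Kcnj15 had 2 reads against 18, a ratio of 7.51 with an interval of 1.799 to 66.8, and is poorly measured.

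The cells of the vessel wall did not move as one. Endothelial and pericyte markers were lower in the mixed-background library, and smooth muscle markers were higher. Of 30 endothelial markers, 29 were lower, where 53.8% of all genes were, and 22 were lower by 1.5-fold or more, where 8.22% of all genes were. Their median log2 ratio was −0.68, and their summed level was 17980 in the mixed-background library, 28269 in C57BL6 and 17752 in the Cx43-deleted library. Pecam1, the junctional adhesion molecule that defines endothelium, was at 1378 against 2264. Sox17, an arterial transcription factor, was the member on the other side, at 230.1 against 225.

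At 2-fold lower were Emcn, Cldn5 and Itm2a. Emcn, endomucin, a sialomucin of capillary and venous endothelium, had 950 reads against 2596 (2.28-fold, 2.12 to 2.46). Cldn5 (chromosome 16, 18776847 to 18778262), the claudin that seals brain endothelial tight junctions, had 11223 reads against 29576 (2.20-fold, 2.15 to 2.25). Itm2a, a membrane protein enriched in brain endothelium, had 7513 against 19546 (2.17-fold, 2.11 to 2.23). With ratios centred by transcript length, an alternative added after the data were seen, Cldn5 was at −0.96 and Itm2a at −0.99, short of 2-fold.

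Of 20 pericyte markers 17 were lower (85%, against 53.8% of all genes), with a median of −0.59 and a summed level of 4606 against 6590.2. Pdgfrb, the receptor that holds pericytes to capillaries, was at 380.04 against 637. Cox4i2, a cytochrome oxidase subunit of hypoxia-sensing cells, had 115 reads against 316 (2.29-fold lower, 1.85 to 2.86), and Kcnj8, the pore of a potassium channel gated by ATP, 499 against 1211 (2.03-fold, 1.82 to 2.25). Both were at −0.92 when centred by transcript length. Rgs4, a regulator of G protein signalling, was on the other side at 735 against 523.

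Of 22 smooth muscle markers 20 were higher in the mixed-background library, where 46.2% of all genes were. None passed 2-fold, and the median was 0.27. Actg2 and Cnn1, contractile proteins, had 167 reads against 121 (1.65-fold, 1.30 to 2.11) and 1069 against 715 (1.79-fold, 1.63 to 1.97). Myocd, the coactivator that switches on contractile genes, had 151 against 106 (1.71-fold, 1.32 to 2.21). Casq2, a calcium store protein, was among the 2 members on the other side, at 21.7 against 41.2. The Cx43-deleted library had a summed smooth muscle level of 6363, below both WT libraries at 9797 and 8078. Of 23 vascular fibroblast markers 16 were lower (69.6%, against 53.8% of all genes), with a median of −0.17, and 0 passed 1.5-fold in either direction. In that list the collagen genes Col6a1 (315 against 225) and Col5a1 (138 against 99.9) were higher, and Slc6a13, a GABA transporter of leptomeningeal cells (91.9 against 131), and Igf2, insulin-like growth factor 2 (2909 against 4003), were lower.

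**Figure D3:**
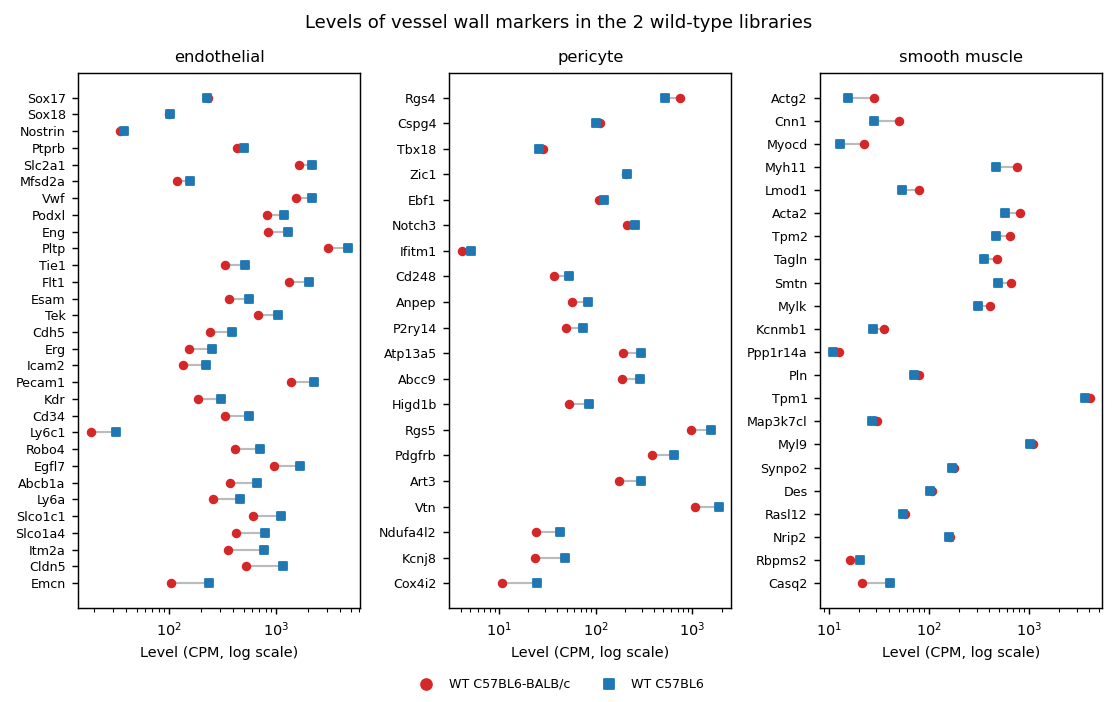
Level (CPM, log axis) of each endothelial, pericyte and smooth muscle marker in the mixed-background (circles) and C57BL6 (squares) library, ordered by log2 ratio. Circles lie left of squares for 29 of 30 endothelial and 17 of 20 pericyte markers, and right of squares for 20 of 22 smooth muscle markers.

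Junction, transport and signalling genes of the endothelium had list medians below 0 but nearer to it than that of the endothelial markers. Of 26 tight and adherens junction genes 19 were lower (73.1%, against 53.8% of all genes), with a median of −0.41. Beside Cldn5, Cldn1, an epithelial claudin that choroid plexus also makes, had 155 reads against 434 (2.34-fold lower, 1.94 to 2.83). Magi1 (chromosome 6, 93675455 to 94283917), a junctional scaffold, and Marveld2, tricellulin, which seals the corners where 3 cells meet, were higher by 2-fold. Magi1 had 3504 reads against 1503 (2.79-fold, 2.63 to 2.97) and Marveld2 635 against 267 (2.85-fold, 2.47 to 3.30). In the Cx43-deleted library Magi1 was at 253 and Marveld2 at 12.8, between the WT levels of 478 and 165 and of 29.9 and 10.5.

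Of 38 barrier transporters 32 were lower (84.2%), with a median of −0.53, and 18 were lower by 1.5-fold. Slc40a1, ferroportin, the iron exporter, was the member at 2-fold, with 1108 reads against 3086 (2.32-fold, 2.17 to 2.49). Slc38a5, a glutamine transporter, was at 163 against 315, Slco1a4, an organic anion transporter, at 427 against 790.3, and Abcc6, an efflux pump, at 14.8 against 28.1. Of 42 Wnt and Notch genes 29 were lower (69.0%) and 2 were so by 2-fold (4.76%, against 1.85% of all genes), and their median of −0.15 lay within the quartiles of all genes. Dll4 (chromosome 2, 119325784 to 119335962), the Notch ligand of arterial and sprouting endothelium, had 788 reads against 2463 (2.61-fold, 2.41 to 2.83). Nrarp, a Notch target that feeds back on the pathway, had 542 against 1538 (2.37-fold, 2.15 to 2.62). Heyl, a Notch target of mural cells, was at 44.4 against 69.7, and Fzd6, a Wnt receptor, at 112 against 181. Of 36 basement membrane and matrix genes 28 were lower (77.8%), with a median of −0.25, also within those quartiles. Nid2, a nidogen, was at 21.4 against 38.6, and Mmp14, a membrane-bound protease, at 17.4 against 31.1.

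Interferon-stimulated genes, the effectors that cells switch on when interferon receptors are engaged, were lower in the mixed-background library. Of 61 measured, 59 were lower (96.7%, against 53.8% of all genes), 43 of them by 1.5-fold and 21 by 2-fold (34.4%, against 1.85%). The median was −0.84, which is −0.15 relative to the endothelial median. A regulatory element shared by many of these genes, the interferon-stimulated response element (ISRE), was searched for on both strands as GAAA, any 2 bases and GAAA again, in the promoter window of each gene, from 250 bases before to 50 after its start in RefSeq (GRCm38.p6). It was found in 23 of the 45 interferon-stimulated genes with a window (51.1%) and in 381 of 10431 genes of all kinds (3.65%). Of the 18 with a window among those 2-fold lower, 10 held it (55.6%). The median ratio was −0.87 for the 23 genes with a match and −0.69 for the 22 without. A match is a run of letters and not a measured binding site. The 80-base stretches that hold the match in 6 of the genes 2-fold lower are shown 5′ to 3′ on the strand of the gene, with the matches in capitals. They are printed because they hold the letters these genes share; in Rsad2 and Gbp5 the motif lies on the opposite strand. The E-box searched for below was in 0 of the 45 windows.
Igtp, chr11:58199476-58199555, plus strand: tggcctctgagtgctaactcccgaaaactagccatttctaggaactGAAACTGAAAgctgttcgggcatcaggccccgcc
Irgm2, chr11:58214883-58214962, plus strand: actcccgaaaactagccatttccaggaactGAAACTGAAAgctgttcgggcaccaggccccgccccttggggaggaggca
Isg15, chr4:156200835-156200914, minus strand: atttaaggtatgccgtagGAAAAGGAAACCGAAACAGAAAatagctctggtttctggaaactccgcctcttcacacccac
Bst2, chr8:71537547-71537626, minus strand: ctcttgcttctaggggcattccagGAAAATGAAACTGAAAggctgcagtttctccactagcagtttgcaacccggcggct
Rsad2, chr12:26456523-26456602, minus strand: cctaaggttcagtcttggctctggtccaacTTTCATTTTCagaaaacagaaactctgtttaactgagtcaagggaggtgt
Gbp5, chr3:142496739-142496818, plus strand: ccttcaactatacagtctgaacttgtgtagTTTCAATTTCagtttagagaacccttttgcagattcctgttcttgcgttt

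Isg15 and Bst2 hold overlapping matches in tandem. The stretches of Igtp and Irgm2, neighbouring interferon-inducible GTPases on chromosome 11 that act against intracellular parasites, are the same at 62 of 64 aligned bases. Their read numbers were also nearly the same, 1136 and 1135 in the mixed-background library against 3401 and 3403 in C57BL6 (2.50-fold, 2.34 to 2.67, for Igtp), so they are not separate measurements. Zbp1, a sensor of left-handed nucleic acids, was the lowest member, with 86 reads against 338 (3.28-fold, 2.58 to 4.21). Irf7, the factor that amplifies interferon production, had 522 reads against 1448 (2.32-fold, 2.09 to 2.56). Rsad2, viperin, an antiviral enzyme, had 316 reads against 965 (2.55-fold, 2.24 to 2.90), and Isg15, a ubiquitin-like modifier, 183 against 515 (2.35-fold, 1.98 to 2.80). Bst2, tetherin, which holds budding virions at the cell surface, was at 24.1 against 51.1. Ifitm3, an antiviral membrane protein, was at 78.8 against 169, and Gbp5, a guanylate-binding protein, at 48.5 against 99.0.

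Further members at 2-fold lower were Ifi47, Tgtp1 and Iigp1 (GTPases of the same class), Oasl1 and Oasl2 (oligoadenylate synthetase relatives), Ifih1 (the RNA sensor MDA5), Isg20, Lgals3bp, Rtp4, Sp100, Trim30d and Psmb9, with log2 ratios from −1.003 for Ifih1 to −1.40 for Ifi47. With ratios centred by transcript length, added after the data were seen, 13 of the 21 stayed at 2-fold, and with a pseudocount of 2 it was 15. Scaling by median-of-ratios size factors left 17. When only genes sharing no exon base were used, 13 were left and the other 8 were filtered out. Igtp and Irgm2 are both counted in the 61, the 59 and the 21. The Cx43-deleted library resembled the mixed-background WT library here, with a summed level of 3462 beside 3594, against 6159.5 in C57BL6.

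Antigen presentation followed in part. Of 22 MHC class I genes and partners 20 were lower (90.9%, against 53.8% of all genes), with a median of −0.46 (−0.30 when centred by transcript length). H2-K1, the classical class I heavy chain, was at 532 against 1001, and Psmb8 and Psmb9, subunits of the immunoproteasome, at 23.9 against 45.5 and 9.53 against 19.996. Of the 17 H2 genes kept on chromosome 17, 12 were lower and 5 higher, with 2 at 2-fold, H2-Q10 and H2-Ea-ps. Of 10 class II genes 7 were lower (70%), with a median of −0.48. The chains H2-Aa and H2-Ab1 were at 18.4 against 30.6 and 16.8 against 28.9, on the other side from H2-Ea-ps, and Ctss, the protease that trims the class II invariant chain, was at 37.8 against 64.6.

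Among 26 leukocyte adhesion genes 20 were lower (76.9%, against 53.8% of all genes), with a median of −0.44. Itgal and Itgb2, which together form the leukocyte integrin LFA-1, had 55 reads against 162 (2.46-fold lower, 1.8003 to 3.40) and 108 against 257 (1.99-fold, 1.58 to 2.51). Bsg, basigin, an abundant barrier membrane protein, was at 2769 against 5350.1, and Itga6, a laminin receptor, at 221 against 384. Of 31 NF-kB and innate sensing genes 27 were lower (87.1%), with a median of −0.49. Among the 31, 5 were 2-fold lower (16.1%, against 1.85% of all genes) and 2 were 2-fold higher (6.45%, against 0.876%). Beside Nlrp1b, the lower ones were Casp4, an inflammatory caspase (52 reads against 182), Bcl3, a nuclear IkB protein (98 against 340), Traf1, an adaptor of tumour necrosis factor receptors (241 against 647), and Nfkbia, the inhibitor of NF-kB that NF-kB itself induces (1913 against 4756). Ptgs2, the inducible prostaglandin synthase that neurons also switch on with activity, was higher beside Nlrp1a, with 2864 reads against 1350 (2.54-fold, 2.38 to 2.71). Nlrp1a reached the level minimum only in the mixed-background library, and Nlrp1b and Casp4 only in C57BL6. Nothing is therefore read from the 2-fold shares of this list. At a minimum of 20, 1 of the 2 higher and 3 of the 5 lower ones were left. Of 17 complement genes 14 were lower (82.4%), with a median of −0.42. C1qa, C1qb and C1qc, the chains of C1q that microglia make, were at log2 ratios of −0.82, −0.85 and −0.80.

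Rapidly regulated genes split. The 42 immediate early genes, the first to be transcribed after a stimulus, had a median of −0.28 (−0.14 when centred by transcript length). At 2-fold, 3 were higher (7.14%, against 0.876% of all genes) and 9 lower (21.4%, against 1.85%). The higher ones were transcription factors known from active neurons: Fosb at 284 against 37.9, Npas4 at 508 against 103 and Egr3 at 95.1 against 43.1. Fos and Arc, the best known of that class, were at 239 against 178 and 462 against 466. The lower ones were Klf2, Sik1, Jun, Dusp1, Atf3, Btg2, Rhob, Ccn1 and Csrnp1. Klf2 (chromosome 8, 72319033 to 72321656), the transcription factor that endothelium makes under laminar flow, had 2096 reads against 8222 (3.27-fold lower, 3.12 to 3.44). Sik1, a salt-inducible kinase, had 1438 against 5076 (2.95-fold, 2.78 to 3.13), and Jun, a subunit of AP-1, 1251 against 4229 (2.82-fold, 2.65 to 3.01). Dusp1, a phosphatase of MAP kinases, was at 277 against 639. The Cx43-deleted library was below both WT libraries at Fosb (7.66), Npas4 (77.1) and Egr3 (20.4) and between them at Klf2 (148).

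Clock genes, whose products form the daily feedback loop of Clock and Arntl against the Per and Cry repressors, were mostly higher in the mixed-background library. Of 21 measured, 16 were higher (76.2%, against 46.2% of all genes), with a median of 0.22. At 2-fold, 3 were higher (14.3%, against 0.876%). Dbp (chromosome 7, 45705088 to 45710203), an output factor driven directly by Clock and Arntl, had 2787 reads against 1288 (2.59-fold, 2.43 to 2.77). Per2, a repressor, had 3643 against 2086 (2.09-fold, 1.98 to 2.21), and Ciart, another repressor of the loop, 315 against 175 (2.16-fold, 1.79 to 2.61). Per3 was at 626 against 314, a ratio of 0.99. The 5 members on the other side were Nfil3, Arntl, Bhlhe40, Csnk1d and Cry1, with ratios of −0.51, −0.37, −0.21, −0.16 and −0.08. Of the activating arm to which Arntl belongs, Clock and Npas2 were higher, at 0.25 and 0.26. The Cx43-deleted library was at 102 for Dbp, 219 for Per2, 16.5 for Ciart and 547 for Per3, in each case above C57BL6. With a pseudocount of 2 the ratio of Ciart was 0.92, and Per2 was at 0.98 when centred by transcript length. The labels name no time of day of collection. The E-box CACGTG, to which Clock and Arntl bind, was in the promoter window of 5 of 18 clock genes (27.8%) and in 11.7% of the 10431 genes. It was also in 8 of 33 immediate early genes (24.2%) and in 1 of 20 endothelial markers (5%). The windows of Dbp and Per3 held no match, and Per2 had no window. The part of the E-box in the clock gene ratios was not tested. Ciart holds 2 copies close to its start, shown 5′ to 3′ on the strand of the gene with the E-boxes in capitals.
Ciart, chr3:95882229-95882308, minus strand: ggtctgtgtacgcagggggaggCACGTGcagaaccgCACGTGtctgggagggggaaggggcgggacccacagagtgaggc

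Genes induced by glucocorticoids, the adrenal steroids whose daily peak precedes activity, had a median of −0.29 over 26 members (−0.13 when centred by transcript length). At 2-fold, 1 was higher (3.85%, against 0.876% of all genes) and 8 were lower (30.8%, against 1.85%). Zbtb16, a transcription factor strongly induced by these steroids, had 1204 reads against 673 (2.14-fold, 1.95 to 2.36). Lower were Lcn2, Cebpd, Cdkn1a, Angptl4, Ddit4, Dusp1, Pdk4 and Nfkbia, several of which answer to stress and inflammatory signals too. Cdkn1a, the cell cycle inhibitor p21, had 1054 reads against 3632 (2.88-fold, 2.68 to 3.08), and Ddit4, an inhibitor of mTOR, 1451 against 4499 (2.59-fold, 2.44 to 2.75). Angptl4, an inhibitor of lipoprotein lipase, had 262 against 857, and Pdk4, a kinase that limits pyruvate oxidation, 320 against 876. The list therefore had members far out on both sides, and the Cx43-deleted library lay above both WT libraries at Zbtb16 (129).

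**Figure D4:**
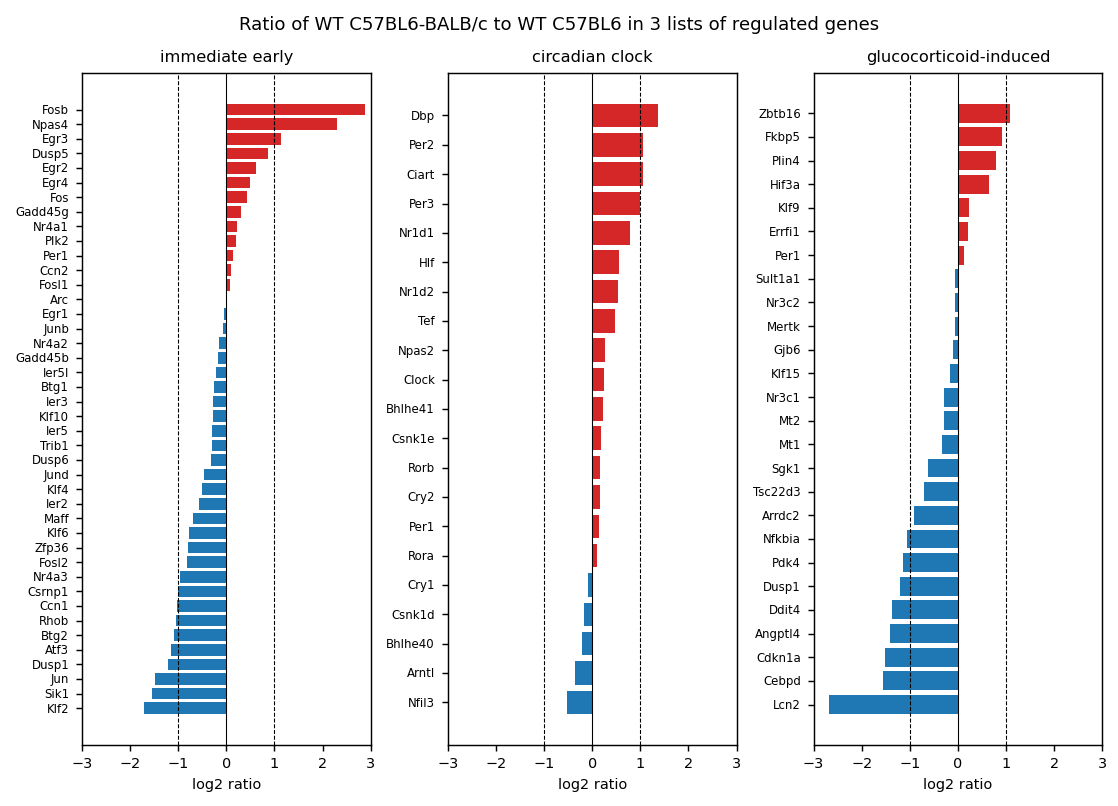
Log2 ratio, mixed background over C57BL6, of every measured immediate early, clock and glucocorticoid-induced gene; red bars are higher and blue bars lower in the mixed-background library, and dashed lines mark 2-fold. Immediate early genes spread from Klf2 at −1.71 to Fosb at 2.89, clock genes lie mostly right of 0, and 8 glucocorticoid-induced genes pass 2-fold to the left.

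Cells from outside the vessel wall also differed between the libraries. Choroid plexus and ependyma, the epithelium that makes cerebrospinal fluid and the ciliated lining of the ventricles, had the lowest list median, −0.93. Of 26 markers 25 were lower (96.2%, against 53.8% of all genes) and 11 were so by 2-fold (42.3%, against 1.85%). Their summed level was 4225 against 9849, with 5287 in the Cx43-deleted library. Ttr (chromosome 18, 20665280 to 20674321), transthyretin, the thyroid hormone carrier that choroid plexus secretes, was at 2311 against 6204 (2.68-fold, 2.66 to 2.71). Folr1, a folate receptor, Aqp1, a water channel, Kl, klotho, and Slc4a5, a bicarbonate transporter, had log2 ratios of −1.43, −1.46, −1.27 and −1.37. Steap1, a metalloreductase, was lowest at 3.30 against 15.1. Foxj1, the master factor of motile cilia, was the member on the other side, at 103 against 95.02, while Tmem212, Dynlrb2, Ccdc153 and Rsph1, also markers of ciliated ependyma, were lower with ratios of −0.42, −0.40, −0.36 and −0.22. The part of choroid plexus RNA in the other lists was not tested.

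Of 30 neuron markers 22 were higher (73.3%, against 46.2% of all genes), with a median of 0.31 and 0 at 2-fold. The 8 on the other side included Tubb3, Pvalb, Thy1 and Nrgn, at ratios of −0.33, −0.32, −0.20 and −0.16. The summed level was 72675 against 43619.8, and 2 long non-coding RNAs made it up for the most part. These were Meg3, at 34444 against 18326, and Snhg11, at 15292 against 8559. Gad2, which makes GABA, was at 71.4 against 39.9, and Camk2a, a kinase of excitatory synapses, at 2280.4 against 1404. Astrocyte markers were nearer to even, with a median of −0.21, 19 of 25 lower (76%, against 53.8% of all genes) and 0 past 1.5-fold. Aldh1l1, Glul and Aldoc, metabolic enzymes of astrocytes, had ratios of −0.55, −0.55 and −0.53. Oligodendrocyte markers had a median of −0.36, 18 of 22 lower (81.8%). Those 2-fold lower included Trf, transferrin (2183 reads against 5633), and Enpp2, autotaxin (17401 against 43500). Trf and Enpp2 are also made by choroid plexus, and Enpp2 stands on that list too.

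Microglia markers were lower, 23 of 24 (95.8%, against 53.8% of all genes), with a median of −0.58. Fcer1g, an adaptor of Fc receptors, had 88 reads against 339 (3.22-fold, 2.54 to 4.11), and Trem2, a lipid receptor, 166 against 381 (1.92-fold, 1.59 to 2.31, and 2-fold on the summed level). Perivascular macrophage markers had a median of −0.59, 11 of 14 lower (78.6%), with Ms4a7 at 4.57 against 10.3 and Mrc1, the mannose receptor, at 22.2 against 38.3. All 5 red blood cell genes kept were lower, and Hbb-bs and Hbb-bt, beta globins whose alleles vary between strains, were at 292 against 509 and 23.7 against 52.5. Of 8 neutrophil and monocyte markers kept from 18, 6 were lower (75%, against 53.8% of all genes). Lcn2 and Plac8 were so by 2-fold (25%, against 1.85%). Ltf, lactoferrin, was the member 2-fold higher (12.5%, against 0.876%), with 203 reads against 83 (2.93-fold, 2.26 to 3.83). Plac8 reached the level minimum only in C57BL6 and Ltf only in the mixed-background library, so nothing is read from these 2-fold shares. Of 26 lymphocyte markers only 4 were kept, with Igkc, the kappa light chain, at 7.07 against 1.81 and 90.4 in the Cx43-deleted library. The T cell receptor complex genes Cd3d and Cd3e were at 0.377 against 0.354 each.

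Among genes of general cell functions, those of oxidative phosphorylation were lower as a list, and only the cell cycle list had members at 2-fold. Of 46 oxidative phosphorylation genes 41 were lower (89.1%, against 53.8% of all genes), with a median of −0.37 and 0 at 2-fold. Ndufa4, Ndufa1 and Ndufc2, small subunits of the respiratory chain, were lowest at −0.75, −0.69 and −0.65. Their transcripts are short, with a median of 929 bases, and the list stood at −0.19 once ratios were centred by transcript length. Cytosolic ribosomal proteins, with a median length of 956 bases, were at −0.13 and turned to 0.04 under that centring. Stress genes were at −0.29, and Nqo1, a quinone reductase, was their lowest at 5.42 against 10.5. Of 16 cell cycle genes kept from 33, 11 were lower (68.75%, against 53.8% of all genes), and 0 were 2-fold higher. Only Bub1b and Pttg1 were 2-fold lower (12.5%, against 1.85% of all genes). Bub1b, at 0.943 against 16.1, reached the level minimum through C57BL6 alone, so nothing is read from this share. The 4 Y-linked genes measured had levels in both libraries (81.0 against 73.6 for Ddx3y), and Xist, which female cells express, was at 1.08 against 1.81.

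**Figure D5:**
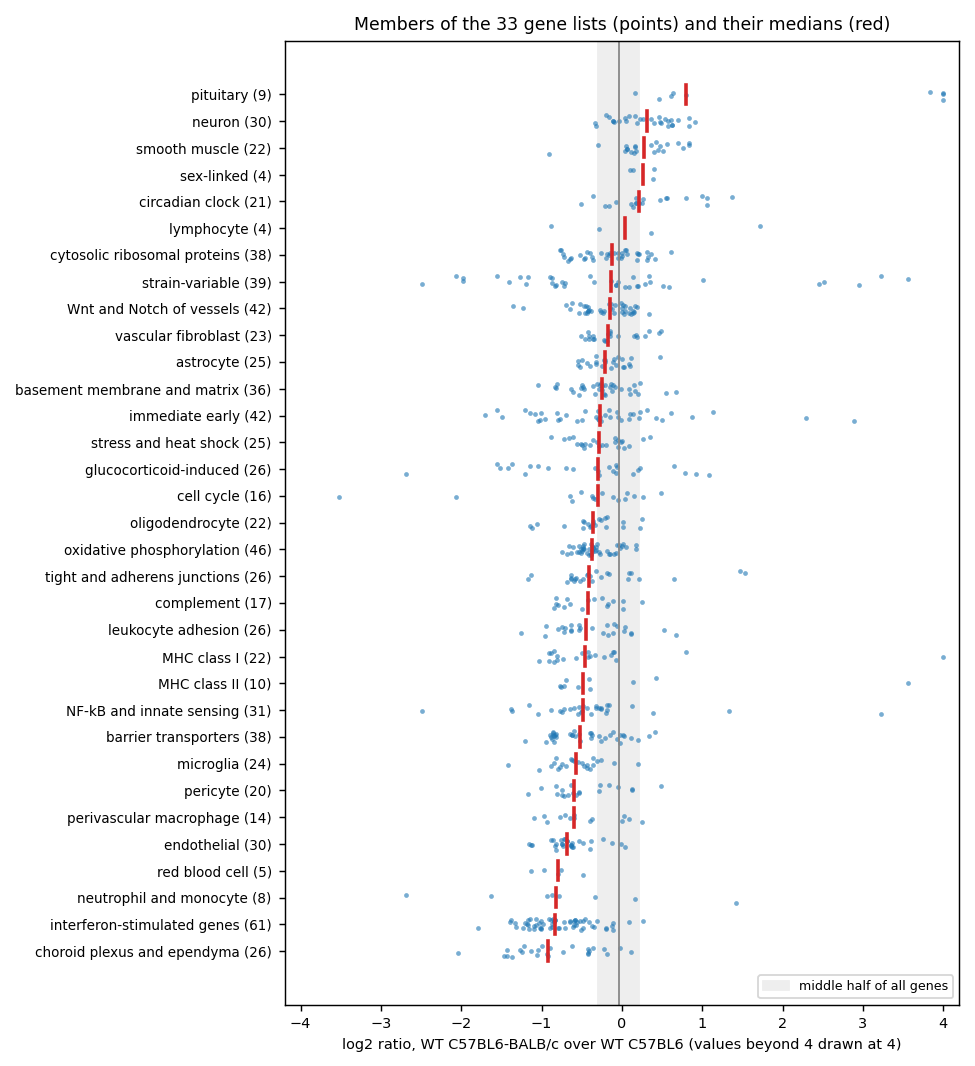
Log2 ratio, mixed background over C57BL6, of the members (points) of all 33 gene lists, ordered by their median (red bars), with the number measured in brackets; the grey band spans the quartiles of all genes, −0.29 to 0.22. Of the 33 medians, 17 lie left of the band, with choroid plexus lowest, and 5 lie right of it: pituitary, neuron, smooth muscle, sex-linked and, at its edge, clock genes.

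Along the genome, genes called at 2-fold were most common on chromosome 17 (4.73% of 634 genes) and on chromosome 1 (4.204% of 785), against 2.72% of all genes. Among the autosomes and X they were least common on chromosome 18 (0.563% of 355) and chromosome 10 (1.10% of 636). Runs of 3 adjacent called genes were found 3 times. Beside the Sfi1 run, BC030499, Gm3948 and Spag5 on chromosome 11 were higher, with Spag5, a spindle protein, at 211 against 104, though Gm3948 lies wholly within exons of another gene. On chromosome 17, 2700054A10Rik, AC174800.1 and Gm16046 were lower, with Gm16046 at 10 reads against 226 (18.9-fold, 10.1 to 39.9). AC174800.1 shares all of its exon bases with other genes, so these values are uncertain.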

How the data were processed

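RNA of brain vessels was measured in 3 libraries, and the 2 wild-type ones were compared. Poly(A) RNA was made into libraries with the TruSeq RNA v2 kit, which does not keep the strand, per the labels' protocols. For each library the authors deposited a table of 82813 Ensembl transcripts with an unnormalised read count, per the file headers. The submitters' processing notes name CASAVA 1.8.2, Bowtie and mm10. How reads were counted, with which annotation, and what was done with multiply matching reads are points not given in the sources used here. Each count also stands in the deposited tables as a fraction of the library total, per the file headers, from which the totals were taken. The counts sum to 2.53 and 2.45 times the totals, so the tables hold more counts than reads, and overlapping, antisense or similar genes may share reads.

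Transcripts were matched to GENCODE M21 on GRCm38 by identifier (69375 of 82813, 83.8%), leaving out 213 placed on another chromosome; they carried 83.4% and 84.0% of the counts. The tables' own coordinates belong to an older build and were not used. Counts were summed per gene and divided by the total times the TMM factor over the 3 libraries (1.00 and 1.02; edgeR 4.0.16, R 4.3.3) to give CPM. Genes at CPM 5 or more in either library were kept, 13694 in all. Log2 ratios used a pseudocount of 0.5. Folds used reads on the gene's most abundant transcript, with exact binomial 95% intervals (scipy 1.17.1, Python 3.11.15), and a floor of 3 reads, a level of 0.141 and 0.118, where a library had 0. Intervals and floors cover counting error only.

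There was 1 library per group, so no test was run. The library is the unit, and each group came from the labels. Named were the 15 genes furthest each way at CPM 5 or more in the higher library, leaving out predicted genes, pseudogenes, ribosomal, small RNA and immunoglobulin variable genes and genes sharing over 25% of exon bases. Also named were up to 4 members per list, all list members at 2-fold, the kept sex-linked and strain-variable genes, and runs of 3 or more called neighbours. Other genes, such as Pecam1, Pdgfrb, Fos, Arc, Foxj1, Chga, Chgb, Scg2, Cd3d, Cd3e and the loci beside H2-Q10, were added after their values were seen. The comparison, the 33 gene lists and the other members were chosen with earlier results of these data known. Alternatives were other pseudocounts, scalings, level minimums, the most abundant transcript alone, genes sharing no exon base and, added after the data were seen, centring by transcript length.

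The steps were run on simulated Poisson counts for 13576 genes in this comparison, with no spread between animals or preparations. In these, 50 of 50 genes simulated 4-fold higher and 49 of 49 simulated 4-fold lower were called, and 0 of 13378 unchanged ones. This checks the calculation only and gives no rate of false calls between real libraries. Promoter windows are from RefSeq (GRCm38.p6). Figures were drawn with matplotlib 3.10.9. Values of some single genes on the lists are not reported here.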

Additional observations from a re-analysis of the deposited data

Results flagged for a closer look

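Transcripts outside the matched set also differed between the WT libraries. Of the 6260 unmatched transcripts at CPM 5 or more, 136 differed by 2-fold (2.17%), 72 of them higher and 64 lower in the mixed-background library. They stand out because no comparison of the report uses them, and they carried 16.6% of the counts in the mixed-background library and 15.95% in C57BL6. Their identifiers have no entry in GENCODE M21, so they are given without names.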

How the results depend on the processing

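Over 11 alternatives, 2254 ratios of 215 named genes could be recomputed, and 111 had no value because the gene fell under the filter of that alternative. Of these, 2250 kept their direction, and the 4 that turned belong to 3 genes within 0.08 of 0. H2-Q7 and Ahr were among those that turned under centring by transcript length, and H2-Q7 also did so on its most abundant transcript. In 2202 cases the ratio stayed on the same side of 2-fold, while 46 dropped under it and 6 passed it. Of 361 list medians recomputed, 359 kept their direction, and 27, in 14 of 33 lists, moved by over 1.5 times. A minimum CPM of 20 moved the medians of pituitary from 0.79 to 3.24, of stress genes from −0.29 to −0.15, of cell cycle from −0.29 to −0.50, of ribosomal proteins from −0.13 to −0.28 and of strain-variable genes from −0.14 to −0.07. With a minimum of 1 the cell cycle median was −0.11, and with none the neutrophil and monocyte one was −0.34 instead of −0.83 and that of complement −0.28. Genes sharing no exon base gave 0.19 for neurons and −0.34 for strain-variable genes. The remaining moves were in these lists, in lymphocyte and sex-linked genes of 4 members each, or under the length centring. The count of genes 2-fold higher (120) was 195 with a minimum CPM of 1, 69 with a minimum of 20 and 207 with no minimum, and the count lower (253) was 161 with a minimum of 20. These counts moved because the filter admits more or fewer low genes. The lymphocyte median turned from 0.04 to −0.23 with no minimum, where more members were measured. Centring by transcript length, added after the data were seen, moved the medians of glucocorticoid-induced genes to −0.13, of immediate early genes to −0.14 and of MHC class I to −0.30, moved the oxidative phosphorylation median from −0.37 to −0.19 and turned the ribosomal protein median from −0.13 to 0.041; by its construction it takes out what follows length. Under it 150 genes were higher and 207 lower, so the higher share of the calls went from 32.2% to 42.0%. No paired analysis was possible because each group has 1 library and the labels give no replicate numbers. A level of 5 rests on 106 and 127 counts, which may be fewer reads, so folds of genes under about 10 reads have wide intervals.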

Other observations

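Several neighbouring gene pairs, singled out after their values were seen, were called in the same direction. Serpinb9 and Serpinb6b, protease inhibitors on chromosome 13, were at 70.7 against 193.7 and 22.5 against 57.3 in C57BL6. Bst1 and Cd38, ectoenzymes of NAD metabolism on chromosome 5, were at 3.07 against 12.5 and 10.6 against 27.9. Trim34a, next to Trim12a on chromosome 7, was at 6.70 against 22.1. Tmem100, an endothelial membrane protein on chromosome 11, was at 12.5 against 38.9, with Pctp, a lipid transfer protein, beside it at 1.74 against 7.75. The Cx43-deleted library was at 69.1, 31.8, 3.62, 11.1, 4.94, 8.15 and 1.98 in the same order. Slc22a2, next to Slc22a3 on chromosome 17, was higher at 8.77 against 3.78, with 5.35 in the Cx43-deleted library. In all, 6 pairs were higher and 20 lower in the mixed-background library, beside the 3 longer runs. On the log2 scale the Cx43-deleted library was nearer to the mixed-background WT library at 32 of the 40 genes in lower pairs and at 2 of the 12 in higher pairs. Exceptions among the lower ones were Ddc, at 74.0 between 30.8 and 95.3, and Lacc1, at 13.03 between 4.24 and 16.1. Neighbours may share reads, and C1qtnf5, Insl3 and Cga share 100%, 64.8% and 32.0% of their exon bases with other genes. The count was not made over all called genes, so nothing is read from it about pairs.

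Long intergenic non-coding RNAs were called more often than other classes, 16% of 75 against 2.57% of 12971 protein-coding genes, a description with no test. Those called include the chromosome 17 run, where 2700054A10Rik and AC174800.1 share 37.3% and 100% of their exon bases. Classes were not matched by level, and 5.11% of genes in the bottom quartile of mean level were called. Collagen genes, grouped after values were seen, were split, 20 higher and 21 lower of 41. On each side 2 were at 2-fold (4.88%, against 0.876% of all genes higher and 1.85% lower). Of 283 zinc finger genes of the Zfp family, 159 were higher (56.2%, against 46.2% of all genes), and the median was 0.03 against −0.03 for all genes.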
